A study of Drosophila melanogaster with 2 samples.

Results

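Among the summits of a ChIP-seq experiment on a GFP-tagged Drosophila protein, 354 of 5703 (6.21%, 95% Wilson interval 5.61 to 6.86%) held a GAGA repeat, a run of at least 7 bases alternating G and A that starts and ends with G, on either strand, within 50 bp of the summit base. These 354 are called GAGA summits here and the remaining 5349 other summits. The repeat was read from the genome sequence alone, so neither binding signal nor gene position chose the members, and every member was kept. Signal here is the score that the authors gave each peak, on a scale they do not state, and it serves to rank peaks within a list.

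The immunoprecipitations used an antibody to GFP on chromatin of whole Drosophila melanogaster at the prepupal stage, both sexes pooled, age unknown. The flies came from 1 transgenic line that stably carries locus CG6854 fused to GFP at the C terminus, with CTPsyn (CTP synthase) as the named target. Chromatin was sheared by sonication. Biological replicates 2 and 3 form a single group, with no second genotype, treatment or stage, and control DNA was not analysed here. Whole animals mix all tissues, so a peak does not tell in which cells the DNA was bound. The summits come from the list filtered by irreproducible discovery rate (IDR), a measure of how alike peaks rank. The replicate lists were deposited as peaks and background for input to IDR, so a summit in them need not be a called peak. Not every kept peak had a close summit in each replicate list. In both lists, one lay within 100 bp for 90.7% of GAGA summits and 91.5% of other summits. Depth per library is unknown from peak lists, and all intervals below are 95% intervals that cover counting error only and treat summits as independent. Near Ctps itself, within 20000 bp of the gene, 0 of 10 IDR summits were GAGA summits.

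Alternating GA sequence is the recognition sequence of GAGA factor (the product of Trl), a zinc-finger protein that keeps promoters open for transcription and is best known from the heat shock genes. Pipsqueak, a BTB-domain protein, and CLAMP, a zinc-finger protein with a part in dosage compensation of the X chromosome, also bind GA repeats. GA-rich DNA is common just upstream of fly genes whose polymerase pauses near the start site. None of these proteins was assayed here.

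The windows below show what the rule selects, in strongly bound summits and in those with the longest runs. Each spans 50 bp on either side of the summit on build dm6 from the RefSeq genome, named by the gene with the nearest protein-coding start site, written 5′ to 3′ on the strand on which its longest run reads GA. Capitals mark runs of 7 or more bases that meet the rule. The first 8 are windows of strongly bound GAGA summits, and the last 4 hold some of the longest runs.
kirre (chrX:3099258-3099358, plus strand): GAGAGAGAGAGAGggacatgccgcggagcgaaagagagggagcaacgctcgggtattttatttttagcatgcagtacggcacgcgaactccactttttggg
Cat (chr3L:18822866-18822966, plus strand): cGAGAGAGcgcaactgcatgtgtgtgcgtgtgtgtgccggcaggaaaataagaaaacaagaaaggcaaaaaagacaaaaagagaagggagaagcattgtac
Mtpalpha (chr2L:9576306-9576406, plus strand): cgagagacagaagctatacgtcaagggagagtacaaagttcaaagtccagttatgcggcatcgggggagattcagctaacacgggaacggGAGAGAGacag
Kdm2 (chr3R:9057680-9057780, plus strand): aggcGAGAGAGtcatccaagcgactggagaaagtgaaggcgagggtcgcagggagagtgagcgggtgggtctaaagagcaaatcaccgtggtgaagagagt
baz (chrX:17178713-17178813, minus strand): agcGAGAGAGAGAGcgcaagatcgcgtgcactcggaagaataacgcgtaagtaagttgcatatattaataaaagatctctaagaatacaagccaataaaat
wnd (chr3L:19633067-19633167, minus strand): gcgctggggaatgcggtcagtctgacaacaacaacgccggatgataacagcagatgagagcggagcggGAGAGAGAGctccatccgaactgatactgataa
InR (chr3R:21605371-21605471, plus strand): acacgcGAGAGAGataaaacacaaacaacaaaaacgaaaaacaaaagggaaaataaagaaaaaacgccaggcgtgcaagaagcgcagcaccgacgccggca
mub (chr3L:21879510-21879610, minus strand): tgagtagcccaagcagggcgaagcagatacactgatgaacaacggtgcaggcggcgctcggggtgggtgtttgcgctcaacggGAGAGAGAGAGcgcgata
rdx (chr3R:14017826-14017926, plus strand): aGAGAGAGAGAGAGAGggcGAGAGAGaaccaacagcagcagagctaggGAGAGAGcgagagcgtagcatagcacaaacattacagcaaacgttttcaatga
Cad86C (chr3R:10826931-10827031, plus strand): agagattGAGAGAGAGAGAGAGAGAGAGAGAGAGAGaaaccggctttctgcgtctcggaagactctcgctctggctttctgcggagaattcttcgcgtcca
br (chrX:1623320-1623420, plus strand): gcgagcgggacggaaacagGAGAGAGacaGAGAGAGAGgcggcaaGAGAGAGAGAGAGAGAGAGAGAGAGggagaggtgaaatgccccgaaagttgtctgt
kay (chr3R:29774546-29774646, plus strand): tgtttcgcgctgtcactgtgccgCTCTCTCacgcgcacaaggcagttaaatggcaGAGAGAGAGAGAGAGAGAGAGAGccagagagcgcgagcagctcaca

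The strongly bound windows mostly carry 1 short run in unrelated sequence. In Cat, Kdm2 and InR the run lies near the 5′ edge of the window as shown, and in Mtpalpha, wnd and mub toward its 3′ end. The runs of kirre and rdx go on past the edge of the window, to 21 and 39 bases in the genome. In kay, 1 run of 23 bases on the shown strand is joined by a run of 7 on the opposite strand, printed as its CT complement. In br, 3 runs follow one another.

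Most members held the shortest run allowed. With runs followed past the window edge, the longest run was 7 bases in 221 summits (62.4%), 9 in 57, 11 in 21, 13 to 15 in 32 and 17 or more in 23. A single run was present in 287 summits, 2 in 55 and 3 or more in 12, with at most 4. In 8 summits the runs lay on both strands. The centre of the nearest run was a median of 23 bp from the summit. No member windows overlapped or were identical to each other, although 2 pairs of neighbouring members had overlapping peaks.

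Values just inside and just outside the rule were these. The 68 members whose nearest run centre lay more than 40 bp from the summit had a median signal of 198.8, against 209.5 in the 189 summits with no repeat within 50 bp but one within 75 bp. Members whose longest run was exactly 7 bases had a median signal of 191.2, against 201.5 in the 885 summits with a run of 5 and none of 7.

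The repeat was more frequent around summits than in the genome, but its share did not peak at the summit base. Of 1323188 windows of the same length tiled along the same arms, 1.24% (1.22 to 1.26%) held it. Windows centred 100 bp to the left and right of the IDR summits held it in 6.68% (6.06 to 7.36%) and 6.16% (5.56 to 6.81%) of cases, with intervals that overlap the 6.21% at the summit itself. The share was 5.03% and 4.47% at 200 bp, and at 2000 bp it was 1.53% and 1.67%. The strongest 5703 summits of each replicate list gave 6.61% in replicate 2 and 5.35% in replicate 3, a mean of 5.98 ± 0.893% (SD, n = 2).

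**Figure D1:**
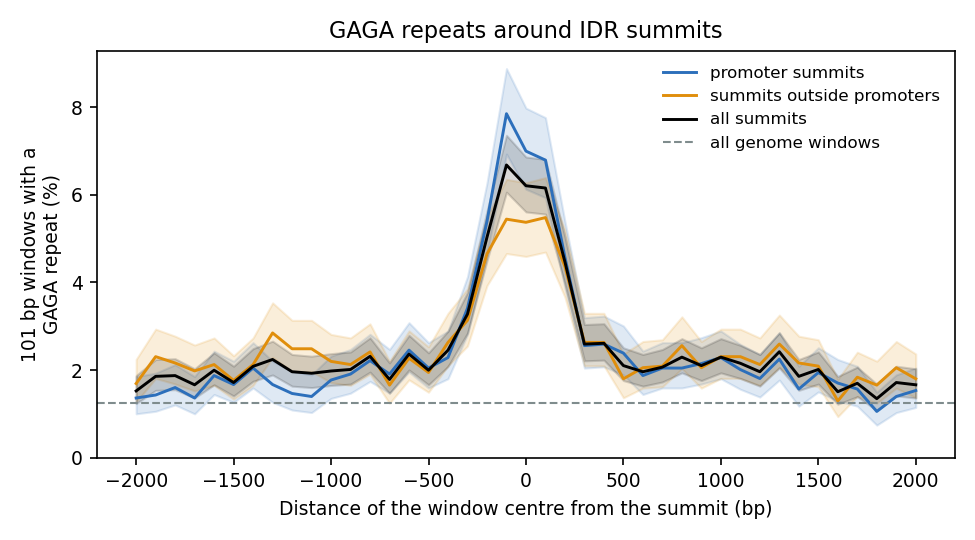
Share of windows reaching 50 bp on each side that hold a GAGA repeat (y axis, %) against the distance of the window centre from the IDR summit (x axis, bp). Lines are promoter summits, summits outside promoters and all summits, bands are 95% Wilson intervals, and the dashed line is the 1.24% of all genome windows. The share is highest within about 200 bp on each side, reaching 7.85% at 100 bp to the left of promoter summits. Farther out, the line of all summits stays above the dashed one, with 2.24% and 2.42% at 1300 bp to the left and right.

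Base composition moved with membership. Outside the runs, the windows of GAGA summits had a median GC content of 50.3% (48.9 to 51.1%), against 43.6% (42.6 to 43.6%) in other summits. Of the 2840 summits above the median GC content of 43.6%, 10.2% (9.15 to 11.4%) held the repeat, against 2.24% (1.76 to 2.84%) of the 2863 at or below it. In the tiled genome the same split gave 1.66% and 0.914%. The comparisons of promoter, 5′ UTR and intergenic shares, side of the start site, distance, gene length, X share, median signal, top 10% and replicate ratio were repeated on either side of that median. For the intron share, the pooled list, run length, gene lists and motifs, the part of GC content was not tested.

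Over the IDR list as a whole, GAGA summits lay closer to genes than other summits did. A promoter, taken as 500 bp on either side of any annotated start site, held 57.9% of GAGA summits (205 of 354, 52.7 to 62.9%) and 50.9% of other summits (2725 of 5349, 49.6 to 52.3%), a difference of 6.97 percentage points (1.60 to 12.2). Each replicate list alone showed the same direction. In replicate 2 the shares were 63.4% of GAGA summits and 53.1% of other summits, and in replicate 3 they were 56.7% and 48.4%. Among summits of GC content above the median the difference was 1.77 points (-4.27 to 7.59), an interval that includes 0. In the tiled genome, promoter windows also held the repeat more often, in 1.767% of cases against 1.24% of all windows. Among IDR summits the shares with a repeat were 6.997% in promoters and 6.21% in all.

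Outside promoters, 5′ untranslated regions (UTRs) held a larger and intergenic sequence a smaller share of GAGA summits than of other summits. The 5′ UTR share was 4.24% of GAGA summits (15 of 354) and 0.785% of other summits (42 of 5349), a difference of 3.45 points (1.78 to 6.10). That difference was 2.85 points (1.13 to 5.74) above the median GC content and 5.61 points (1.80 to 14.4) at or below it. With the 5′ UTRs inside promoters counted too, the shares were 22.6% and 21.2%, a difference of 1.36 points (-2.84 to 6.12) that includes 0. In the tiled genome, 5′ UTR windows outside promoters also held the repeat more often, in 2.56% of cases. The intergenic share was 6.78% of GAGA summits and 12.6% of other summits, a difference of -5.82 points (-8.19 to -2.59). It was -3.66 points (-7.52 to 2.58) for runs of at least 9 bases and -4.67 points (-9.85 to 5.02) at or below the median GC content, both with intervals that include 0. Above the median GC content it was -4.81 points (-7.39 to -1.23). Intergenic windows of the tiled genome also held the repeat less often, in 1.10% of cases against 1.24% of all windows. Among IDR summits the shares with a repeat were 3.44% in intergenic sequence and 6.21% in all. Introns and noncoding exons took 30.8% of GAGA summits and 34.3% of other summits, a difference of -3.52 points (-8.27 to 1.64) that includes 0. Coding exons held 0 of 354 GAGA summits, which allows a share of up to 0.847% if 3 counts are taken as the limit of a count of 0 (the Wilson upper limit is 1.07%), and 31 of 5349 other summits (0.580%). The 5′ UTR members include baz (Bazooka, the Par-3 polarity protein) and Pdp1 (a bZIP activator with a part in the circadian clock). With a window that reaches 25 bp on each side the 5′ UTR difference was 0.708 points (-0.441 to 3.87).

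**Figure D2:**
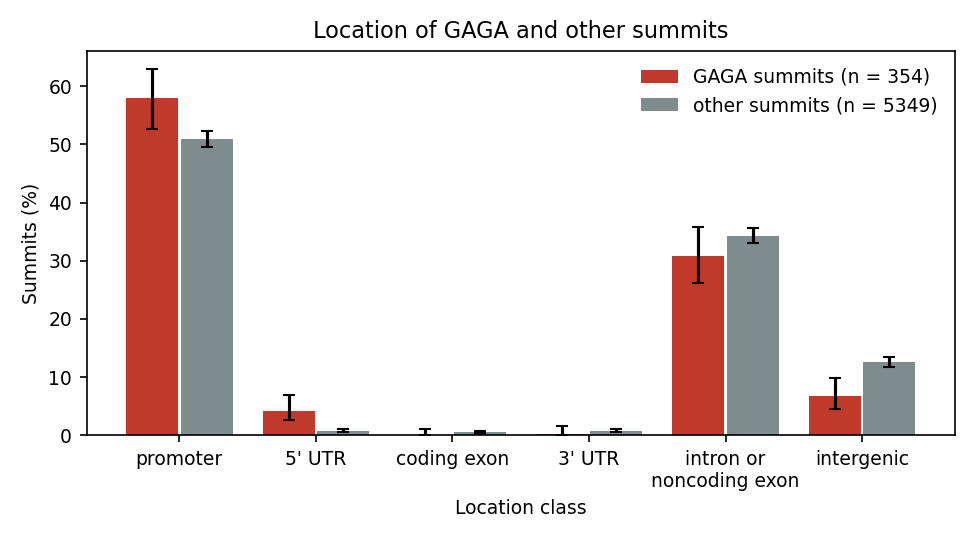
Share of summits (y axis, %) in each location class (x axis) for GAGA summits (left bars, n = 354) and other summits (right bars, n = 5349), with 95% Wilson intervals. Promoters hold 57.9% of GAGA summits and 50.9% of other summits, and intergenic sequence holds 6.78% and 12.6%.

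Within promoters the GAGA summits were shifted upstream. Of the summits within 500 bp of a protein-coding start site, 71.8% of GAGA summits (140 of 195, 65.1 to 77.6%) and 51.6% of other summits (1309 of 2537, 49.7 to 53.5%) lay upstream of it, a difference of 20.2 points (13.2 to 26.4). In the replicate lists alone the upstream share was 73.2% of GAGA summits and 47.9% of other summits in replicate 2, and 67.9% and 53.7% in replicate 3. The bins from 100 to 50 bp and from 50 to 0 bp upstream held 21.5% and 20.5% of GAGA summits, against 9.38% and 13.4% of other summits. In the 50 bp downstream of the start site the order turned, with 8.72% of GAGA summits and 15.6% of other summits.

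In the genome as a whole, repeats near protein-coding start sites lie mostly upstream. Of the 3383 runs in the genome within 500 bp of a protein-coding start site, 67.0% (65.4 to 68.6%) lay upstream. Windows centred 50 and 150 bp upstream of all protein-coding start sites held a repeat in 3.49% and 3.24% of cases, while those 50 and 150 bp downstream held it in 1.26% and 1.07%. Of the repeat centres at the 195 GAGA summits, 143 were upstream (73.3%, 66.7 to 79.1%), and 79 of them lay within 100 bp of the start site. The GA strand was the gene strand in 94 of 195 (48.2%, 41.3 to 55.2%), an interval that includes equal use of both strands.

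**Figure D3:**
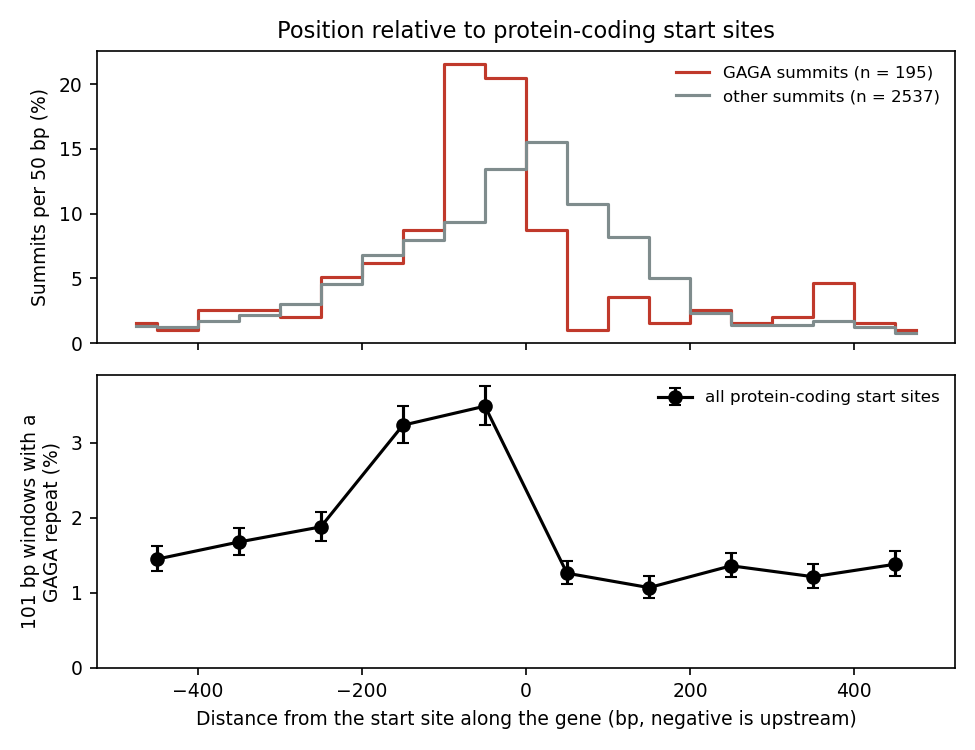
Upper panel, share of summits per 50 bp bin (y axis, %) by distance from the nearest protein-coding start site along the gene (x axis, bp, negative is upstream) for GAGA summits (n = 195) and other summits (n = 2537). Lower panel, share of windows of the same length with a repeat around all protein-coding start sites, with 95% Wilson intervals, on the same axis; the bins from 100 to 0 bp upstream hold more GAGA summits than any other bins, and the windows at 50 and 150 bp upstream hold the repeat most often.

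The median distance to a protein-coding start site was 378.5 bp (277 to 501) for GAGA summits and 651 bp (578 to 727) for other summits, a difference of -272.5 bp (-399 to -130). Above the median GC content the difference was -31.5 bp (-149 to 122), and at or below it -346.5 bp (-609.5 to 519.9). For runs of at least 9 bases it was -264 bp (-450.6 to 117.9). Each of these intervals runs from negative to positive values, so the direction is not settled on either side of the GC median. Counted once per summit, the nearest gene was also longer at GAGA summits, with a median length of 14450.5 bp (12471 to 16995) against 8184 bp (7662 to 8662) at other summits. A gene with several summits counts once for each, and the intervals do not allow for this. In the replicate lists alone, the median gene length was 14581 bp for GAGA summits and 8184 bp for other summits in replicate 2, and 15403 bp and 8169 bp in replicate 3. The difference in the IDR list was 6266.5 bp (4230.1 to 8864.0). It was 6047.5 bp (3125.1 to 10316.7) above the median GC content and 7112.5 bp (665 to 11843.3) at or below it.

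The X chromosome held 20.6% of GAGA summits (73 of 354, 16.7 to 25.1%) and 15.8% of other summits (845 of 5349, 14.8 to 16.8%), a difference of 4.82 points (0.809 to 9.44). That difference was 2.79 points (-1.05 to 7.20) in the replicate 2 list and 3.24 points (-0.818 to 8.06) in the replicate 3 list, both with intervals that include 0. Above the median GC content it was 7.90 points (3.39 to 13.1). At or below that median it was 0.529 points (-7.30 to 11.8), an interval that includes 0. Tiled windows also held the repeat more often on X, in 1.51% of cases against 1.18% on the autosomes. Long runs were more common there too. A run of 11 or more was the longest in 35.6% (26 of 73, 25.6 to 47.1%) of X members and 17.8% (50 of 281, 13.8 to 22.7%) of autosomal members. Among all runs in the genome, 19.8% on X and 13.1% on the autosomes had 11 or more bases. The genome shares count every run and the member shares only the longest run of a summit, so their sizes are not directly comparable.

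Signal hardly separated the sets as wholes. The median signal was 194.3 (189.1 to 204.7) for GAGA summits, which ran between 136.7 and 1480.1, and 200.6 (197.9 to 203.4) for other summits, which ran between 136.3 and 2488.2. The difference of -6.26 (-12.2 to 4.42) includes 0. In promoters the medians were 209.8 for GAGA summits and 204.6 for other summits. Outside promoters they were 181.6 and 195.8, a difference of -14.2 (-25.2 to -3.62).

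The very strongest peaks were an exception. The top 10% of the IDR list by signal held 4.52% of GAGA summits (16 of 354) and 10.4% of other summits (554 of 5349), a difference of -5.84 points (-7.75 to -3.03). Seen the other way, 2.81% (1.74 to 4.51%) of the top 10% held the repeat, while the other 9 parts of equal size ranged between 5.26 and 7.90%. Among summits of GC content above the median the difference was -0.331 points (-1.76 to 2.22), and at or below it -5.83 points (-7.48 to 1.00). With a window that reaches 100 bp on each side it was -1.49 points (-3.56 to 0.978), and outside promoters -3.66 points (-6.53 to 1.31). These intervals all include 0, while in promoters the difference was -7.73 points (-10.0 to -3.94).

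Farther down, the share fell. The pooled list, made from both replicates together, was deposited as peaks and background for input to IDR. Its weaker entries may therefore be background and not called peaks. The pooled list ran on past the IDR list to 30000 summits, of which 19.0% were in the IDR list. Of its 1051 summits with a repeat, 33.7% (354) were in the IDR list, against 18.5% (5349 of 28949) of its summits without one, a difference of 15.2 points (12.4 to 18.2). With the pooled summits outside the IDR list cut into 4 equal parts, strongest to weakest, the repeat was held by 4.0%, 3.11%, 2.47% and 1.89%.

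**Figure D4:**
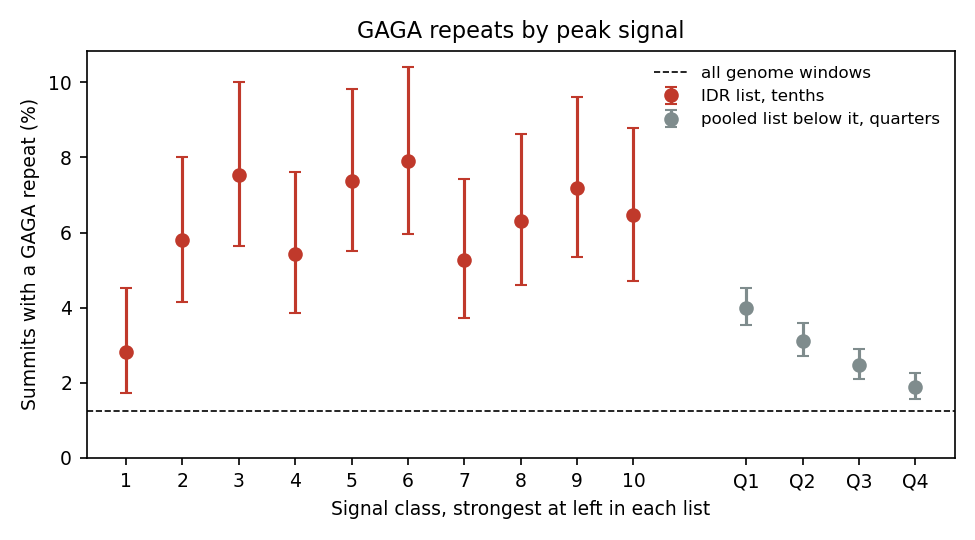
Share of summits that hold a GAGA repeat (y axis, %) by signal class (x axis), as 10 equal parts of the IDR list and 4 of the pooled list below it, strongest at left in each, with 95% Wilson intervals and a dashed line for all genome windows (1.24%). The strongest part stands at 2.81%, the other 9 between 5.26 and 7.90%, and the parts below the IDR list decline to 1.89%.

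The signal of GAGA summits relative to other summits differed a little between the replicates. Of the members, 321 were found within 100 bp in both replicate lists, as were 4896 other summits. In replicate 2 the median signal was 104.4 for GAGA summits and 101.3 for other summits, and in replicate 3 it was 100.5 and 109.4. The median log2 ratio of replicate 3 over replicate 2 was -0.02 (-0.10 to 0.06) for GAGA summits and 0.20 (0.18 to 0.22) for other summits, a difference of -0.22 (-0.30 to -0.14). Above the median GC content the difference was -0.055 (-0.14 to 0.03), and at or below it -0.24 (-0.33 to 0.07), and both intervals include 0. In promoters the difference was -0.21 (-0.30 to -0.11), and outside them -0.19 (-0.32 to -0.07). Among GAGA summits the largest ratios were at Idua (a lysosomal iduronidase, signal 23.2 in replicate 2 and 85.6 in replicate 3), Eaf6 (24.1 and 82.1) and NFAT (51.04 and 173.6). The smallest among them were at sgg, the GSK3 kinase (119.6 in replicate 2 and 22.5 in replicate 3), vers (100.6 and 24.2) and mthl9 (131.6 and 31.7).

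**Figure D5:**
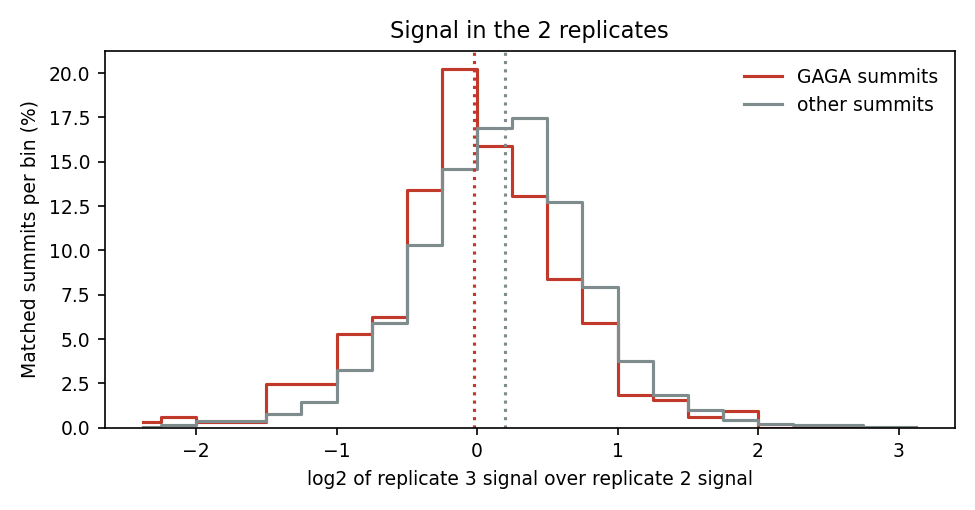
Distribution of the log2 ratio of replicate 3 signal over replicate 2 signal (x axis) at summits found in both replicate lists (y axis, % of summits per bin), for GAGA summits and other summits. Dotted lines are the medians, -0.02 for GAGA summits and 0.20 for other summits, and the distributions overlap over most of their range.

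The strongest GAGA summits lay at genes of many kinds. The first was at kirre, an adhesion protein of muscle founder cells (chrX:3099093-3099616), whose signal was 1480.1 in the IDR list, 772.8 in replicate 2 and 707.7 in replicate 3, 242 bp upstream of the start site. Synj, the phosphoinositide phosphatase synaptojanin, followed with 1383.4, 697.3 and 678 in the same order. Catalase (Cat, chr3L:18822588-18823106) had 1376.2, 595.2 and 786.5, with its summit 312 bp downstream of the start site. The log2 ratio of replicate 3 over replicate 2 was -0.13 at kirre, -0.04 at Synj and 0.40 at Cat.

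Next came Mtpalpha, the alpha subunit of the mitochondrial trifunctional protein of fatty acid oxidation, with 1143.6, and Kdm2, a histone demethylase, with 899.1 at a summit 4439 bp into the gene. A summit inside Vha16-1, a proton pump subunit, had 788.9, and its nearest protein-coding start site was that of CG33919. The summit of baz lay in its 5′ UTR, with 686.6. The carnitine palmitoyltransferase gene whd had 584.5, wnd (a MAP kinase kinase kinase) 550.1 and InR (the insulin receptor) 538.9. Of the 20 strongest, the remaining 10 ran between 408.2 and 507.9. These were the summits nearest to CG18467 (inside EDTP), lawc (within Trf2), croc, Glut4EF, mlt (inside KCNQ), Pdp1, mub, mop (inside bmm, a triglyceride lipase), mol and dob (inside Lsd-2, a lipid droplet protein).

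Signal did not follow run length in one direction. The run of 39 bases at rdx, a Cullin-3 adaptor, had 196.6 in the IDR list, 84.4 in replicate 2 and 114.7 in replicate 3. Runs of 37 at Tret1-1 (inside Roc2), 33 at Acsl, 29 at Cad86C and 25 at br had 140.4, 279.0, 245.5 and 175.5. Members grouped by run length had medians of 191.2 for 7 bases, 188.3 for 9, 213.2 for 11, 214.7 for 13 to 15 and 191.6 for 17 or more, with overlapping intervals.

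The members had 308 nearest protein-coding genes, of which 272 had 1 GAGA summit, 28 had 2 and 8 had 3 or more. Of these 308 genes, 210 also had other summits, which is 68.2% of them and 7.06% of the 2975 genes nearest to other summits. The matching share over all protein-coding genes is not given here, so these shares only describe the overlap. The ecdysone-induced ETS gene Eip74EF and InR had the most, 4 GAGA summits of 9 each, with signals of 181.6 to 310.7 at Eip74EF and 189.9 to 538.9 at InR. All 3 summits of CG6424 and of Pdp1 were GAGA summits. Eip75B (an ecdysone-induced nuclear receptor) had 3 of 25, kay (Fos) 3 of 9, bun 3 of 8 and MFS14 3 of 6.

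Nearest genes were also counted in 8 gene lists. The ecdysone response list, genes that act at metamorphosis, took 5.37% of GAGA summits (19 of 354, 3.46 to 8.23%) and 2.26% of other summits (121 of 5349, 1.90 to 2.70%). The 19 lay at 10 genes, with 4 of them at Eip74EF, and the 121 at 27 genes. The intervals do not allow for this clustering of summits in genes. The strongest GAGA summits of this list were at crol (360.4), EcR, the ecdysone receptor (340.0), and Eip74EF (310.7 and 270.6). Heat shock and chaperone genes took 1.13% of GAGA summits (4, 0.440 to 2.87%) and 0.280% of other summits (15, 0.170 to 0.462%), intervals that overlap slightly. The 4 were at Hsp26 (310.9 in the IDR list, 154.4 in replicate 2, 167.3 in replicate 3), Hsc70-3 (285.2 and 234.7) and Hsp22 (154.6). At Hsp22 the replicates differed more, with 111.3 in replicate 2 and 39.6 in replicate 3.

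Signalling pathway genes took 4.24% of GAGA summits (15) and 2.82% of other summits, with intervals that overlap, led by puc, tkv, pnt and kay with signals of 306.0, 275.7, 265.1 and 258.4. Genes of GA-repeat-binding and BTB factors had 6 GAGA summits (1.69%, against 1.05% of other summits), at Trl itself (286.8), mod(mdg4) (258.6), psq (219.2) and br (175.5). Polycomb and trithorax genes had 4 (1.13% and 0.916%), at trx, osa and kis, and disc selector genes had 5 (1.41% and 0.673%), with sd, bi and nub among them. The peak at nub had no summit within 100 bp in either replicate list. No GAGA summit was nearest to a Hox or segmentation gene (0 of 354, which allows up to 0.847% at 3 counts and 1.07% by the Wilson limit), against 19 other summits (0.355%). The 92 cytoplasmic ribosomal protein genes had 1, at RpS19a with a signal of 215.9 (0.282% of GAGA summits and 1.50% of other summits).

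Of 12 other motifs, searched on both strands with the letters of the runs left out, the TATA box TATAAA differed most. It was in 5.93% of GAGA windows (21 of 354) and 12.2% of other windows (653 of 5349), a difference of -6.28 points (-8.49 to -3.19). The Pho core GCCAT was in 10.2% of GAGA windows and 14.6% of other windows, a difference of -4.39 points (-7.29 to -0.690), and the Zelda site CAGGTA in 3.67% and 2.02% (1.65 points, 0.0841 to 4.19). Windows of the same length at all protein-coding start sites held these motifs in 15.5%, 16.8% and 2.00% of cases. The intervals of the remaining 9 differences included 0. The DRE, TATCGATA, and the M1BP-like GGTCACAC were in 0 GAGA windows, which allows up to 0.847% at 3 counts and 1.07% by the Wilson limit, and in 28 and 35 other windows. The motif shares were not split by GC content, so the part of composition in them was not tested. A match is a description of the letters and does not show binding.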

How the data were processed

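ChIP-seq was measured in 2 biological replicates of 1 group. The authors deposited narrowPeak lists on build dm6: 1 per replicate, 1 pooled and 1 passing IDR, called against a control alignment per the notes deposited with the files. The replicate and pooled lists hold peaks and background for input to IDR. The signal value is a score the authors gave each peak; its scale is not stated. The −log10 q-value was deposited too and was not used to rank. Neither aligner nor peak caller is named in the sources used here, and depth per library is unknown. The dm3 lists were not used.

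Summits were placed on the RefSeq genome of dm6 and annotated with Ensembl release 115, with Python 3.11.15, numpy 2.4.6, pandas 2.3.3, scipy 1.17.1 and matplotlib 3.10.9. Each summit had 1 class, with promoters taking precedence, then exons (5′ UTR, coding, 3′ UTR), then introns or noncoding exons, then intergenic sequence. Shares carry Wilson intervals, differences of shares Newcombe intervals, medians exact order-statistic intervals and differences of medians intervals built from both. No p-value was computed, since summits are not replicates. Functions were tested on simulated data. Named genes are those nearest to the 20 strongest summits and the 5 longest runs, up to 4 summits per list, the 3 largest and 3 smallest replicate ratios, and genes with 3 or more members. Members, lists and motifs were chosen with earlier results of these data known. Of 319 list symbols, 313 were found. Alternatives were other windows, run lengths, promoter widths and lists, and, chosen after seeing the data, the split by GC content.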

Additional observations from a re-analysis of the deposited data

How the results depend on the processing

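Over 14 results, 152 alternative values were computed; 125 lay within the 95% interval of the value reported, 27 outside it, and 0 turned a difference whose interval excludes 0 to the opposite sign. The share of summits with a repeat depends on the rule itself: 3.12% with a window of 25 bp on each side, 12.1% with 100 bp, 21.7% with 5 bases and 2.23% with 9 bases. With each replicate left out in turn it ranged between 5.35 and 6.61%. The upstream difference was 27.8 points with 25 bp, 25.9 (18.2 to 32.7) above the median GC content and 13.1 (-5.58 to 26.8) at or below it. The 5′ UTR difference was 0.708 points with 25 bp, 1.404 with 5 bases and 6.33 with a promoter of 250 bp. The top-10% difference was -1.49 points with 100 bp and -0.331 above the median GC content. The difference in reaching the IDR list was 7.60 points with 5 bases. The X difference was 13.3 points with 9 bases, 7.90 (3.39 to 13.1) above the median GC content and 0.529 (-7.30 to 11.8) at or below it. Its interval included 0 at or below the GC median and with 100 bp (2.43), 5 bases (2.02) and the stronger part of the IDR list (1.83). In the stronger part of the IDR list the promoter difference was 14.5 points, the intergenic one -8.54 and the signal difference -16.5. The signal difference was 5.18 in promoters, -14.2 outside them and -23.1 at or below the median GC content. The distance difference was -111 bp with start sites of all genes and -31.5 bp above the median GC content, and the log2 replicate ratio difference there was -0.055. The cause of these changes was not tested. The intergenic difference included 0 with 9 bases (-3.66) and at or below the GC median (-4.67). The distance difference included 0 with 9 bases (-264 bp) and on either side of the GC median (-31.5 and -346.5 bp). The promoter difference included 0 with a 250 bp promoter (2.63 points), with 9 bases (4.63) and on either side of the GC median (1.77 and 5.38). No paired analysis was possible because there is 1 group. With 2 replicates and no control DNA analysed here, the spread between animals is known poorly.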
